A study of Mus musculus with 12 samples.

Results

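Inmt, Sftpa1, Mro, Cytl1 and Ndrg2 are 5 of the 56350 genes in the count table of the mouse mesenchymal line MPC2, and all 5 were among the 16484 genes with enough counts to be tested. They were picked on their response to FG-4592, as genes with large falls in MSCs or osteocytes, so their changes with FG-4592 are given below as a description, with no test. For 4 of the 5 the counts bore this out. Inmt, Sftpa1, Mro and Cytl1 were lower with FG-4592 in osteocytes, and Mro and Cytl1 also in MSCs. Ndrg2 did the opposite: its level was 30.3-fold higher with FG-4592 in MSCs and 3.31-fold higher in osteocytes. What was negative for Ndrg2 was the difference between the responses (osteocytes minus MSCs), −3.21 on the log2 scale. Its step up was the smaller one in osteocytes. Ndrg2 is therefore described here as a gene that was higher with FG-4592.

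The study asked how undifferentiated mesenchymal cells (MSCs) and osteocytes, the cells embedded in bone matrix, respond to mimicked hypoxia. MPC2 is a conditionally immortalized mesenchymal progenitor line, clone 2, so that all 12 libraries came from a single clone. MSCs were grown at 33 °C. Osteocytes were the same cells after 3 weeks at 37 °C in osteogenic media with beta-glycerophosphate and ascorbic acid, so that temperature, media and differentiation cannot be told apart. Each cell type received vehicle (DMSO) or 50 µmol/L FG-4592 (Roxadustat) for 48 h, with 3 libraries in each of the 4 conditions. The labels do not say whether the 3 came from separate cultures, and the p-values measure the spread between these libraries only. Library totals lay between 52829185 and 68108470 counts. Levels are given as CPM, counts scaled by library size and TMM factors, and a count of 0 allows a level of up to 3 counts, or between 0.0447 and 0.0545 CPM in a library, with counting error alone considered.

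FG-4592 inhibits the prolyl hydroxylases that mark the hypoxia-inducible factors (HIF) for degradation. HIF then accumulates and raises its target genes through binding sites built on the core ACGTG or GCGTG. The 5 genes belong to different families. Inmt encodes indolethylamine N-methyltransferase, which moves methyl groups from S-adenosylmethionine to indole amines such as tryptamine. Sftpa1 encodes surfactant protein A, a collectin of lung surfactant that binds microbial sugars. Mro encodes maestro, a nucleolar protein with HEAT-like repeats first described in the developing testis. Cytl1 encodes cytokine-like 1, a small secreted protein known from cartilage. Ndrg2 belongs to the N-myc downstream-regulated genes, whose products have an alpha/beta hydrolase fold without known hydrolase activity and respond to growth arrest and stress.

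Promoter sequence was read from RefSeq windows of 300 bases on GRCm38.p6, the assembly that mm10 denotes, running from 250 bases before each gene's start. Of the 5 genes, 4 had a window and Mro had none. The bases ahead of the first exon of the count table's annotation are printed to show which letters lie near the starts of genes picked for a fall with FG-4592, and of Ndrg2, which was higher with it. Each is written on the gene's own strand, with every match to a motif in capitals. The motifs were both forms of the HIF core named above and the core of a TATA box, which is TATAAA, and each was searched on both strands. These 3 motifs do not overlap each other in the stretches shown. The stretches are chr6:55175044-55175240 for Inmt (minus strand), chr14:41131538-41131781 for Sftpa1 (plus), chr5:37735269-37735518 for Cytl1 (plus) and chr14:51914159-51914254 for Ndrg2 (minus).
Inmt: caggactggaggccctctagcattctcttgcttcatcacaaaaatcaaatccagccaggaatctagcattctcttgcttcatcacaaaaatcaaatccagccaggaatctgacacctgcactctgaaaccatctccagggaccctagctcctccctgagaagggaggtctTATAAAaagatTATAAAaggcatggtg
Sftpa1: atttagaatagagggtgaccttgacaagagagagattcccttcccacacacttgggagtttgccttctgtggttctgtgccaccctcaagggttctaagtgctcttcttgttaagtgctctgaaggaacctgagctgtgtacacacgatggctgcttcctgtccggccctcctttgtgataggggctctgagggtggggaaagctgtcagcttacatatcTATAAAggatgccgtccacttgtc
Cytl1: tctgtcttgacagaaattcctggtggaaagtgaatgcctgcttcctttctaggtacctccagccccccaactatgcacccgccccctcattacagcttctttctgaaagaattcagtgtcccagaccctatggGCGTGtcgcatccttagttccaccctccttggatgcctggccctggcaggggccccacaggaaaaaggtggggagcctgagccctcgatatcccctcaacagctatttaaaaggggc
Ndrg2: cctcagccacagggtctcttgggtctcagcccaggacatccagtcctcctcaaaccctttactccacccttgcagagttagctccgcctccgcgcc

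The stretch before Inmt held TATAAA 2 times, starting 27 and 16 bases before the first exonic base. It also held a direct repeat of 46 bases whose copies lie end to end. The stretch before Sftpa1 held TATAAA once, 24 bases before the first exonic base. TATAAA was present in 13.6% of all 32851 windows in the table. The stretch before Cytl1 held GCGTG once, 117 bases before the first exonic base, and no TATA box core. Of all windows, 32.4% held GCGTG, another form of the core (ACGTG) was in 19.6%, and 43.8% held either. The 96 bases shown for Ndrg2 held none of the motifs. The rest of that window, inside the annotated gene and not shown, held TATAAA once on the opposite strand. The shares of all windows refer to the full 300 bases, which is longer than any stretch shown. Ndrg2 has 2 further RefSeq starts inside the annotated gene, whose windows overlap. Of these, the one nearer the stretch shown held GCGTG 3 times and the other once, a match that both share. Such matches describe the letters only, and nothing follows from them about binding.

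**Figure D1:**
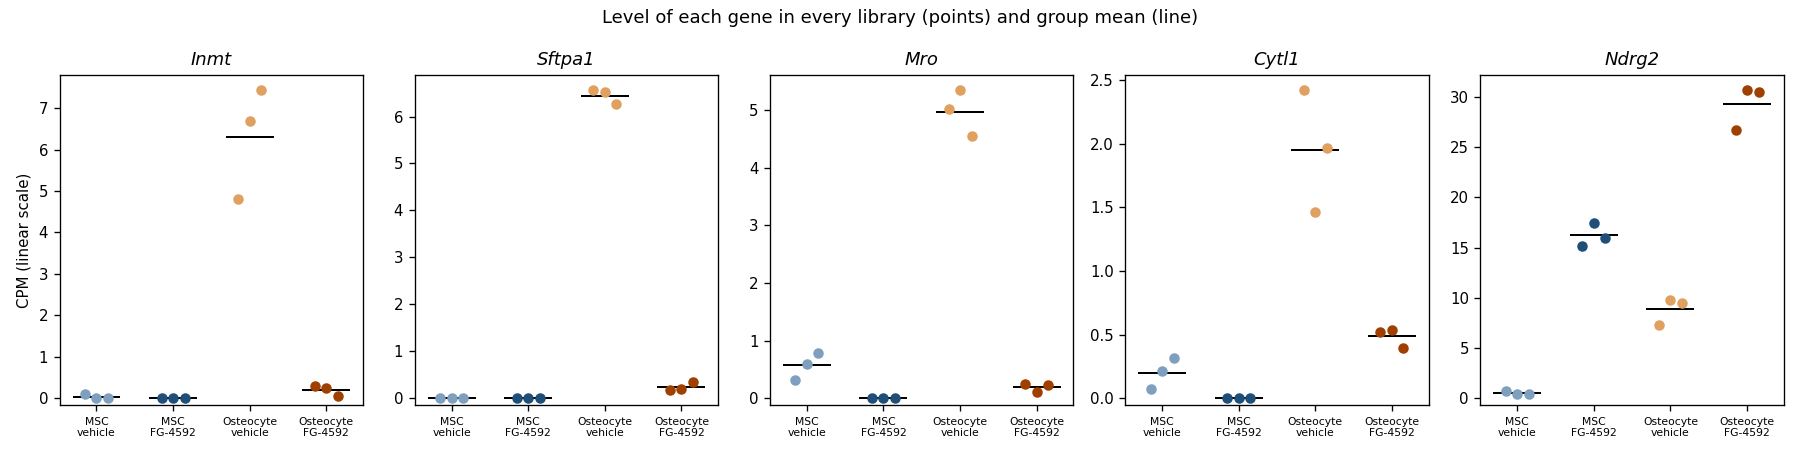
Level of Inmt, Sftpa1, Mro, Cytl1 and Ndrg2 in CPM (vertical axis, linear, a separate scale for each gene) in the 3 libraries of each of the 4 conditions (points), with the group mean as a line. Vehicle-treated osteocytes stand highest for Inmt, Sftpa1, Mro and Cytl1 (means of 6.31, 6.45, 4.97 and 1.95 CPM), whereas Ndrg2 stands highest in FG-4592-treated osteocytes (29.3 CPM).

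Inmt (ENSMUSG00000003477.5, mm10 chr6:55170626-55175043, minus strand, 1600 exonic bases in 3 exons) was read almost only in vehicle-treated osteocytes. There it had 319, 372 and 457 counts, or 4.8, 6.68 and 7.43 CPM. In FG-4592-treated osteocytes it had 20, 15 and 3 counts, or 0.308, 0.245 and 0.0495 CPM, the last of these at the counting floor. The means were 6.31 ± 1.35 and 0.201 ± 0.135 CPM (SD, n = 3), so that 3.18% of the vehicle level was left, and the libraries of the conditions did not overlap. MSCs had 6 counts in 1 vehicle library and 0 in the other 2 and in all 3 FG-4592 libraries, so that no change with FG-4592 could be measured there.

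Sftpa1 (ENSMUSG00000021789.14, chr14:41131782-41136452, plus strand, 2860 exonic bases in 6 exons) had 0 counts in all 6 MSC libraries. In vehicle-treated osteocytes it had 436, 363 and 385 counts, or 6.56, 6.52 and 6.26 CPM, the smallest spread between replicates for any of the 5 genes in a condition with counts (SD of 2.56% of the mean). With FG-4592 the osteocytes had 12, 12 and 21 counts, or 0.185, 0.196 and 0.347 CPM. The means were 6.45 ± 0.165 and 0.242 ± 0.0903 CPM (SD, n = 3), with 3.76% left and no overlap. Sftpa1 is best known as a product of lung epithelium, and several genes that define this epithelium were at or near 0 in every condition. Napsa had no count in any library, and Sftpc, Sftpd, Nkx2-1 and Lamp3 had group means of at most 0.0336 CPM. Scgb1a1, a club cell marker that did not pass the filter, had 16, 13 and 1 counts in vehicle-treated MSCs and none in vehicle-treated osteocytes. Of the 10 alveolar and club cell markers listed, 2 passed the filter, the lipid transporter gene Abca3 (46.4 CPM in vehicle-treated and 45.6 CPM in FG-4592-treated osteocytes) and Muc1 (0.14 and 0.486 CPM), which passed only through treated osteocytes, where it had 21, 28 and 41 counts against 9, 4 and 13 in vehicle. Abca3 had 9.72 CPM in vehicle-treated MSCs and was called higher in vehicle-treated osteocytes, as were 9.83% of all genes tested. The list summed to between 43.5 and 48.7 CPM in vehicle-treated osteocytes and between 44.2 and 49 CPM with FG-4592. Most of this sum was Abca3.

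Mro (ENSMUSG00000064036.15, chr18:73859385-73881333, plus strand, 4431 exonic bases in 10 exons) was read in both cell types and was lower with FG-4592 in both. Vehicle-treated osteocytes had 333, 297 and 280 counts, or 5.01, 5.34 and 4.55 CPM, and FG-4592-treated osteocytes had 16, 7 and 14 counts, or 0.246, 0.114 and 0.231 CPM. The means were 4.97 ± 0.394 and 0.197 ± 0.0721 CPM (SD, n = 3), with 3.97% left. In MSCs the vehicle libraries had 18, 36 and 50 counts, or 0.327, 0.601 and 0.785 CPM. Of the FG-4592 libraries, 2 had no count and replicate 2 had 1. The 104 counts against 1 correspond to a ratio of 111, with a 95% counting interval from 19.5 to 4430. Without FG-4592 replicate 2, that group had no count, and Mro was at least 11.8-fold lower in it. The step in osteocytes started from more counts and was the better measured one.

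Cytl1 (ENSMUSG00000062329.4, chr5:37735519-37739820, plus strand, 1056 exonic bases in 4 exons) had the fewest counts of the 5 in vehicle-treated osteocytes, with 161, 81 and 121, or 2.42, 1.46 and 1.97 CPM. FG-4592-treated osteocytes had 34, 33 and 24 counts, or 0.523, 0.539 and 0.396 CPM. The means were 1.95 ± 0.484 and 0.486 ± 0.0785 CPM (SD, n = 3), with 24.9% left and no overlap, against 3.18% to 3.97% left of Inmt, Sftpa1 and Mro. The 3 vehicle-treated MSC libraries had 4, 13 and 20 counts, or 0.0726, 0.217 and 0.314 CPM, and the FG-4592-treated MSCs had none. Against a floor of 3 counts in each library, Cytl1 was at least 4.26-fold lower in the treated MSCs.

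Ndrg2 (ENSMUSG00000004558.15, chr14:51905271-51914158, minus strand, 3397 exonic bases in 18 exons) was read in all 12 libraries and was higher with FG-4592 in each cell type. Vehicle-treated MSCs had 42, 27 and 25 counts, or 0.763, 0.451 and 0.393 CPM. FG-4592-treated MSCs had 908, 1176 and 1022 counts, or 15.2, 17.5 and 16 CPM. The means of 0.535 ± 0.199 and 16.2 ± 1.17 CPM (SD, n = 3) differed 30.3-fold, and the lowest treated library was far above the highest vehicle library. Vehicle-treated osteocytes had 487, 544 and 583 counts, or 7.33, 9.78 and 9.48 CPM, and FG-4592-treated osteocytes had 1737, 1878 and 1850 counts, or 26.7, 30.7 and 30.5 CPM. Here the means of 8.86 ± 1.33 and 29.3 ± 2.24 CPM differed 3.31-fold, again without overlap.

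The rule that picked the genes can be read from their places among all falls, as a description of the choice. Of the 6171 genes with a negative log2 fold change in osteocytes and a mean of at least 100 counts in some condition, Inmt, Sftpa1 and Mro held ranks 1, 2 and 3, with log2 fold changes of −4.95, −4.73 and −4.64, and Cytl1 held rank 80 with −2.00. The genes next in order after Mro were Phex (−4.35) and Kctd12 (−3.78). Of the 6612 such genes in MSCs, Cytl1 and Mro held ranks 1 and 2 by fitted change, and Inmt held rank 17 with −4.15. Olfml1 (−6.11) and Ahsg (−5.58) came next after Mro. The fitted values of Cytl1 and Inmt rest on a group with no count, and that of Mro on a group with 1. Without the library that held it, the value of Mro was a bound of −3.56. Cytl1, Mro and Inmt reached a mean of 100 counts only in osteocytes, so their ranks in MSCs rest on few counts. Of the 5752 genes for which the difference between the responses was negative, Ndrg2 held rank 7. For the other genes described below, a gene was called where edgeR's quasi-likelihood test gave an FDR (the p-value after Benjamini-Hochberg adjustment) under 0.05 and the log2 fold change passed 1 in either direction. Over all genes tested, 6.25% were called higher and 4.26% lower with FG-4592 in osteocytes, and 4.12% were called higher and 5.17% lower in MSCs.

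The order of the 4 conditions was not the same for the 5 genes. For Inmt, vehicle-treated osteocytes were highest and FG-4592-treated osteocytes next, and the latter overlapped with vehicle-treated MSCs. Sftpa1 had the same order, with no count in either MSC condition. For Mro, vehicle-treated MSCs came second, above FG-4592-treated osteocytes, and all neighbours in the order were apart. Cytl1 differed from Mro in that FG-4592-treated osteocytes (0.396 to 0.539 CPM) stood above vehicle-treated MSCs (0.0726 to 0.314 CPM). For Ndrg2 the order ran upward from vehicle-treated MSCs through vehicle-treated osteocytes and FG-4592-treated MSCs to FG-4592-treated osteocytes, with no overlap between neighbours.

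Levels of different genes were compared per length, as CPM per kb of exon. In vehicle-treated osteocytes the mean CPM per kb was 3.94 for Inmt, 2.61 for Ndrg2, 2.25 for Sftpa1, 1.85 for Cytl1 and 1.12 for Mro. On this scale Inmt exceeded 52% of the genes tested and Mro 33.8%, so that these transcripts were of middle to low abundance. With FG-4592 the osteocytes had 8.63 CPM per kb of Ndrg2, above 68.9% of the genes tested, and 0.0445 CPM per kb of Mro, above 4%. Inmt was the most abundant of the 5 per kb in vehicle-treated osteocytes, and Cytl1, with 0.46 CPM per kb, was the most abundant of the 4 lowered genes after treatment.

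The cell types were set side by side in vehicle, also with no test, because the vehicle libraries took part in picking the genes and a large fall in osteocytes needs a high level there in vehicle. Inmt, Sftpa1 and Cytl1 passed the count filter only through their osteocyte libraries. The level of Ndrg2 in osteocytes was 16.6-fold that in MSCs (4.06 on the log2 scale). Cytl1 was 9.68-fold (3.25) and Mro 8.7-fold (3.11) higher. Sftpa1, with no count in MSCs, was at least 128-fold higher. For Inmt the ratio of the means was 174, but the level in MSCs rested on the 6 counts of replicate 1, and without that library Inmt was at least 133-fold higher. For each of the 5 genes, the lowest osteocyte library was above the highest MSC library.

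In FG-4592-treated cells, Ndrg2 had counts in every library of both cell types. It was higher in osteocytes by 0.85 on the log2 scale, or 1.81-fold. For 3 of the other genes the treated MSCs had no count. Relative to the floor, Cytl1 was at least 10.3-fold, Sftpa1 at least 5.13-fold and Inmt at least 4.25-fold higher in treated osteocytes than in treated MSCs. The 37 counts of Mro in treated osteocytes against 1 in treated MSCs gave a ratio of 37.8, with a 95% counting interval from 6.38 to 1530, and without that MSC library Mro was at least 4.06-fold higher in osteocytes.

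Marker genes of several cell types were read in the same libraries, and in bulk RNA fewer cells of a type and less RNA per cell cannot be told apart. Genes that passed the count filter only through 1 of the conditions compared are left out of the counts and medians of that comparison. Between the cell types, genes that passed only through osteocytes are left out. Of the 10 osteocyte and osteoblast markers kept, 4 were called higher in vehicle-treated osteocytes than in MSCs and none lower, where 9.83% of all genes tested were called higher and 6.08% lower. The most abundant were Spp1 (3160 CPM in MSCs and 5510 in osteocytes), Col1a1 (2800 and 2750) and Runx2 (128 and 189), and none of these 3 was called. Sost, the secreted Wnt inhibitor of mature osteocytes, had no count in any library, and Mepe was at most 0.0111 CPM, so that these defining markers of late osteocytes were not detectable. The 4 called were Bglap, Bglap2, Dmp1 and Phex, and Phex, an endopeptidase gene of osteocytes, had 0.977 CPM in MSCs and 57.6 CPM in osteocytes. The 3 adipocyte markers that did not pass through osteocytes alone, Adipoq, Plin1 and Fabp4, were called higher in vehicle-treated osteocytes. Cfd and Cidec passed only through osteocytes. Adipoq, the adipocyte hormone adiponectin, went from 7.77 to 1470 CPM, Cfd from 0.0673 to 358 CPM and Plin1 from 0.324 to 283 CPM, whereas Lep was at or near 0. The summed level of the 6 adipocyte markers lay between 11.2 and 12.4 CPM in vehicle-treated MSCs and between 1840 and 2580 CPM in vehicle-treated osteocytes, alongside the higher levels of the 5 genes. Of 6 chondrocyte markers, 3 were called higher in vehicle-treated osteocytes and none lower, with a median log2 fold change of 0.44. Col2a1, the collagen of cartilage, went from 0.771 to 62.7 CPM, Comp from 1.12 to 7.54 CPM and Col11a2 from 3.38 to 9.55 CPM, and the summed level of all 17 chondrocyte markers lay between 86.5 and 97.2 CPM in MSCs and between 128 and 148 CPM in osteocytes. Sox9, the most abundant of the chondrocyte markers, was lower in osteocytes (84.2 CPM in MSCs and 51.7 CPM in osteocytes). Col9a3 (0.836 and 0.545 CPM) and Matn3 (1.24 and 0.74 CPM) were lower too, and none of these was called. The part of either list in the levels of the 5 genes was not tested.

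**Figure D2:**
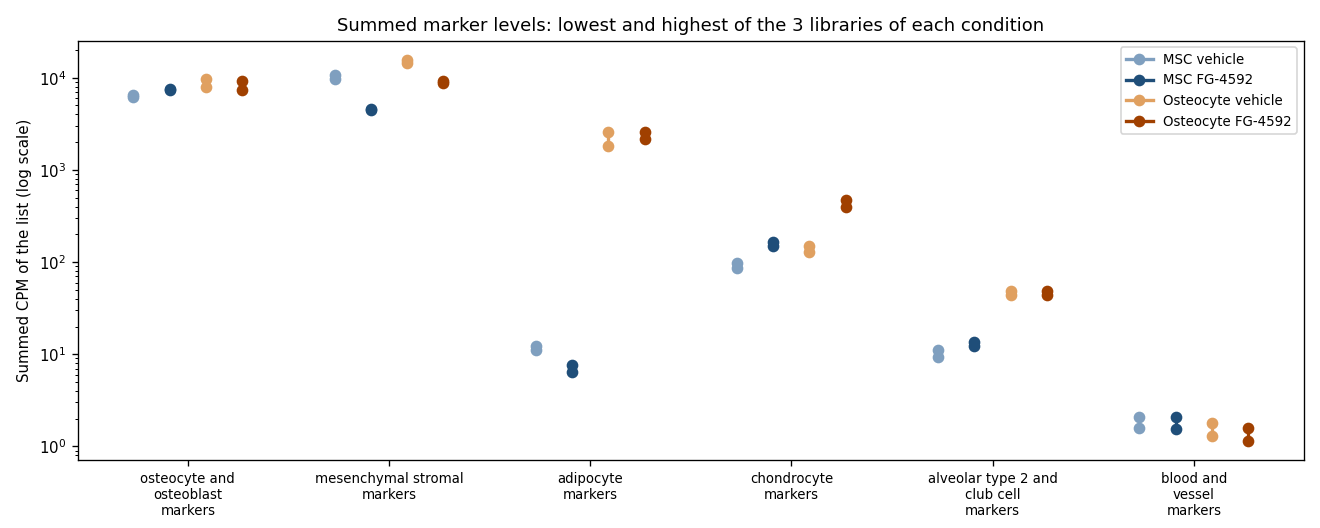
Summed CPM (vertical axis, log scale) of 6 lists of marker genes, with the lowest and highest of the 3 libraries of each condition joined by a line. The adipocyte sum lies between 1840 and 2580 CPM in vehicle-treated osteocytes and between 2180 and 2580 CPM in FG-4592-treated ones, against 11.2 to 12.4 and 6.35 to 7.65 CPM in MSCs.

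The same markers were then read with FG-4592. The adipocyte sum in treated osteocytes, between 2180 and 2580 CPM, overlapped that in vehicle. Of the 5 adipocyte markers tested, 1 was called higher in osteocytes (Fabp4, 104 to 238 CPM) and none lower. In MSCs 1 was called lower (Adipoq, 7.77 to 2.86 CPM) and none higher. Over all genes, 6.25% were called higher in osteocytes and 5.17% lower in MSCs, and 5 genes are too few to be set apart from these shares. Of the osteocyte and osteoblast markers, 5 were called lower in osteocytes (Bglap, Bglap2, Ibsp, Dmp1 and Phex) and none higher, and 4 were called lower in MSCs (Alpl, Ibsp, Dmp1 and Phex) and none higher, beside 4.26% and 5.17% of all genes called lower. Fgf23, which passed only through treated osteocytes, had 5, 0 and 0 counts in vehicle-treated osteocytes and 125, 79 and 98 with FG-4592. The median log2 fold change of the markers was −1.05 in osteocytes (10 genes, without Fgf23) and −0.60 in MSCs (11 genes, with Fgf23). The median over all genes tested was 0.00 and −0.05. Of the 8 mesenchymal stromal markers tested, Lepr was called lower and Ly6a higher in osteocytes, and Nt5e and Cxcl12 were called lower in MSCs. Over all genes, 4.26% were called lower and 6.25% higher in osteocytes and 5.17% lower in MSCs, and a list of 8 is too short to be set apart from these shares. Cxcl12, the chemokine of marrow stroma, had 8730 CPM in vehicle-treated and 3150 CPM in FG-4592-treated MSCs. Pdgfrb (687 and 490 CPM) and Pdgfra (292 and 234 CPM), receptors of stromal cells, were not called in MSCs. The summed stromal level lay between 9650 and 10600 CPM in vehicle-treated MSCs and between 4470 and 4540 CPM with FG-4592, and in osteocytes between 14300 and 15700 and between 8790 and 9190 CPM. Most of this sum was Cxcl12, which had 13300 and 7390 CPM in osteocytes. Without Cxcl12 the sum lay between 1430 and 1460 and between 1340 and 1370 CPM in MSCs, and between 1830 and 1880 and between 1580 and 1620 CPM in osteocytes, and Ly6a stood higher with FG-4592 in both (216 to 396 and 55.8 to 320 CPM). The part of these levels in the changes of the 5 genes was not tested. The blood and vessel markers summed to at most 2.08 CPM in any library.

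The 10 oxygen-responsive reference genes gave a check of the treatment. Adm, Car9 and Egln3 passed the count filter only through treated osteocytes, where they stood high (37, 16 and 49 counts of Adm against 1, 0 and 0 in vehicle), and their calls are not counted. The other 7 were all called higher with FG-4592 in osteocytes, with a median log2 fold change of 3.50, and 7 of the 10 were called higher in MSCs. Ldha, the lactate dehydrogenase subunit of glycolysis, went from 318 to 3150 CPM in MSCs and from 341 to 2290 CPM in osteocytes. Pgk1, a glycolytic kinase, went from 261 to 3200 and from 147 to 1910 CPM, and Bnip3, a mitophagy receptor, from 37.7 to 747 and from 61.2 to 809 CPM.

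The relatives of each gene were listed by function, and the counts below are over those that passed the filter. Among the N-myc downstream-regulated genes, Ndrg1, an established hypoxia-responsive gene, was called higher with FG-4592 in both cell types. Its level went from 26.4 to 172 CPM in MSCs (log2 fold change 2.71) and from 21.9 to 216 CPM in osteocytes (3.30), although 556 of its exonic bases are shared with other genes. Ndrg2 thus moved in the direction of Ndrg1. Ndrg3 (138 and 119 CPM in MSCs, 124 and 124 CPM in osteocytes) and Ndrg4 (88.5 and 116 CPM, 51.7 and 80 CPM) were not called in either cell type. None of these 3 was called different between the cell types in vehicle.

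**Figure D3:**
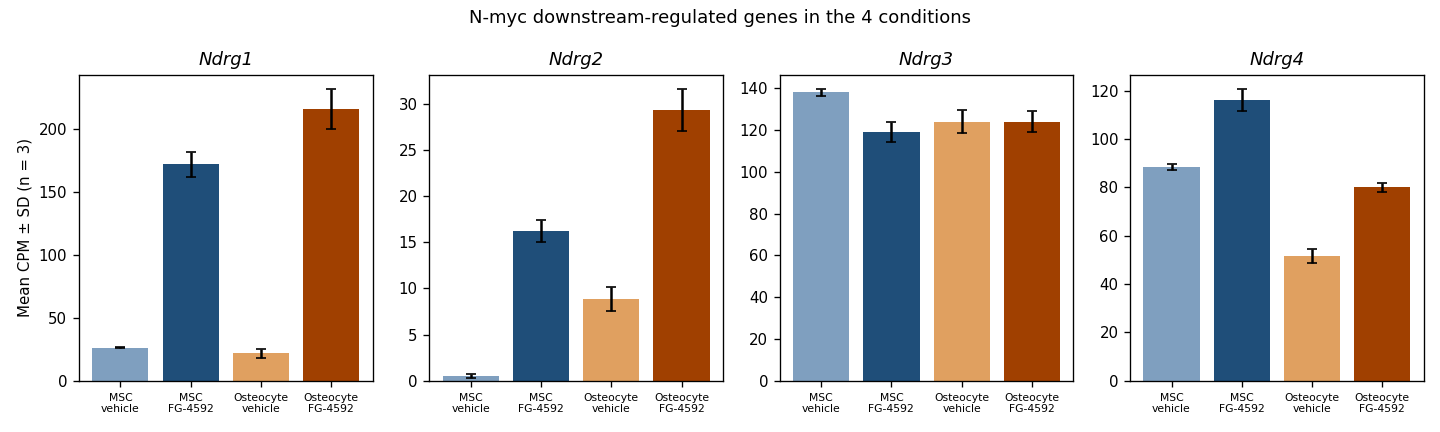
Mean CPM ± SD (bars and error bars, n = 3; a separate scale for each gene) of Ndrg1, Ndrg2, Ndrg3 and Ndrg4 in the 4 conditions. FG-4592 bars stand above vehicle bars in both cell types for Ndrg1, Ndrg2 and Ndrg4, and the vehicle level of Ndrg2 differs 16.6-fold between the cell types (0.535 and 8.86 CPM).

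Around Inmt, 14 of 20 small-molecule methyltransferases and enzymes of the methionine cycle, which supplies S-adenosylmethionine, were tested. Symbols that the table lists 2 times, such as Mat2a, were left out. In osteocytes 2 were called lower with FG-4592 and none higher, and in MSCs 1 was called lower and none higher. Over all genes tested, 4.26% and 5.17% were called lower, and the list is too short to be set apart from these shares. The median log2 fold changes were −0.16 and −0.28. The 3 most abundant, Ahcyl1 (355 and 292 CPM in vehicle-treated and FG-4592-treated osteocytes), Ahcyl2 (81.2 and 110 CPM) and Mat2b (70.8 and 68.2 CPM), were not called. The genes called were Gamt, which makes creatine (12.8 to 4.87 CPM in osteocytes), Tpmt, which methylates thiopurines (8.14 to 3.83 CPM in osteocytes), and Nnmt, which methylates nicotinamide and is a relative of Inmt (62.1 to 30.2 CPM in MSCs).

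Around Sftpa1, 11 of 14 collectins and receptors of surfactant protein A were tested. None was called in MSCs and 1 was called lower in osteocytes, near the background of 4.26%. That one was Tlr2, a pattern recognition receptor (32.2 to 15.4 CPM). Lrp1 (2540 and 2780 CPM in vehicle-treated and FG-4592-treated osteocytes), Calr (1400 and 1340 CPM) and Colec12 (1260 and 1320 CPM), which bind or resemble collectins, were not called. The list had a median log2 fold change of 0.07 in osteocytes without Mbl1, which passed only through vehicle-treated osteocytes, and −0.07 in MSCs, or 0.00 in MSCs with Mbl1, which had no count in treated MSCs, at its bound.

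Around Mro, 3 of 10 genes of the maestro HEAT-like repeat family were tested. Mroh1 had 60.9 and 82.8 CPM in vehicle-treated and FG-4592-treated MSCs and 39.6 and 42.6 CPM in osteocytes, and was not called. Mroh7 was called lower in MSCs, where it went from 0.0584 to 0.00496 CPM, levels around the counting floor. In osteocytes it had 0.422 and 0.172 CPM, and it passed the filter only through the vehicle-treated ones. Mroh8 (0.247 and 0.08 CPM) was not called. The median log2 fold change of the 3 was −0.52 in MSCs.

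Around Cytl1, 13 of 17 genes were tested, a list of cartilage growth factors and receptors that also held the transcription factors Sox5 and Sox6. Of the 12 without Gdf5, 6 were called higher and 1 lower in vehicle-treated osteocytes than in MSCs, beside 9.83% and 6.08% of all genes. With FG-4592, 1 was called higher (Igf1r, 144 to 332 CPM) and none lower in osteocytes, and 1 was called lower and none higher in MSCs. The latter was Tgfb3, a chondrogenic growth factor (251 to 83.9 CPM), which in osteocytes had 551 and 315 CPM and was not called. A single call in such a list is near the background of 6.25% higher in osteocytes and 5.17% lower in MSCs. Igf1 (584 and 307 CPM in osteocytes) and Ccn2 (440 and 382 CPM) were not called with FG-4592. The median log2 fold change was 0.05 in osteocytes without Gdf5, which passed only through treated osteocytes. In MSCs it was −0.30, or −0.15 with Gdf5, which had no count in treated MSCs, at its bound. Of 7 chondrocyte markers, 2 were called higher and 2 lower (Matn3 and Matn4) with FG-4592 in osteocytes, beside 6.25% and 4.26% of all genes. Col2a1 went from 62.7 to 294 CPM and Sox9, the chondrocyte transcription factor, from 51.7 to 119 CPM, and both were called higher, whereas Cytl1 was lower in the same libraries. In MSCs, of the 8 chondrocyte markers tested, 2 were called lower (Comp and Matn3) and none higher with FG-4592, beside 5.17% and 4.12% of all genes. The median log2 fold change there was −0.79, or −0.73 with Col9a2, which had no count in treated MSCs, at its bound. Lists this short cannot be set apart from these shares. Acan, Hapln1 and Chad, which define cartilage matrix, were at or near 0.

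The genes on either side were read next, to show whether the changes extended to neighbours. Within 200 kb of the 5 genes lay 19 others that passed the filter. In MSCs 3 of the 19 were called higher and 2 lower with FG-4592, and in osteocytes, where Mbl1 is left out, none of 18 was called higher and 3 lower. Over all genes, 4.12% were called higher and 5.17% lower in MSCs, and 6.25% and 4.26% in osteocytes, and counts of 0 to 3 are too few to set the neighbours apart from these shares. Stk32b, a serine/threonine kinase gene 18348 bases from Cytl1, was called lower in both. Its counts were 7, 11 and 7 in vehicle-treated MSCs and 0, 1 and 0 with FG-4592, a ratio of 26.7 with a 95% counting interval from 4.37 to 1100 (FDR = 0.000297 by edgeR's quasi-likelihood test). In osteocytes it had 649, 478 and 413 counts in vehicle and 104, 137 and 134 with FG-4592 (log2 fold change −2.05 ± 0.219, SE; FDR = 1.11e-06). Its levels thus followed the order seen in Cytl1, with 0.14, 0.00496, 8.36 and 2.02 CPM in vehicle-treated and treated MSCs and vehicle-treated and treated osteocytes. Msx1, a homeobox gene 80665 bases from Cytl1, was not called (7.89 and 7.41 CPM in osteocytes).

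Near Sftpa1, the collectin gene Mbl1 lay 15006 bases away. It had 21, 26 and 65 counts in vehicle-treated osteocytes and 22, 1 and 11 with FG-4592, which overlapped. It had 1 count in all in vehicle-treated MSCs and passed the filter only through vehicle-treated osteocytes, so that no test of it is given. Prxl2a, 117994 bases from Sftpa1, was called lower with FG-4592 in both cell types (1.78 to 0.816 CPM in MSCs and 4.38 to 1.53 CPM in osteocytes). Tspan14 was not called. Near Inmt, Mindy4, 28340 bases away, went from 4.22 to 8.49 CPM in MSCs and was called higher, and it had 12.1 and 11.9 CPM in osteocytes. Aqp1, the water channel, was called higher in MSCs (615 to 1270 CPM), and Ggct, 177676 bases away, was called lower in osteocytes (4.59 to 1.94 CPM). Nod1 and Gars were not called.

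Near Mro, Me2, a mitochondrial malic enzyme gene 43936 bases away, was called higher with FG-4592 in MSCs (62.4 to 220 CPM), the direction opposite to that of Mro, and was not called in osteocytes (56.9 and 83.9 CPM). Smad4 and Elac1 were not called. None of the 6 genes tested near Ndrg2 was called in either cell type. The nearest were Slc39a2, 8526 bases away, with 0.24 and 0.295 CPM in MSCs, and Mettl17, 12232 bases away, with 8.85 and 9.88 CPM. Arhgef40, Zfp219, Hnrnpc and Rpgrip1 were farther off.

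**Figure D4:**
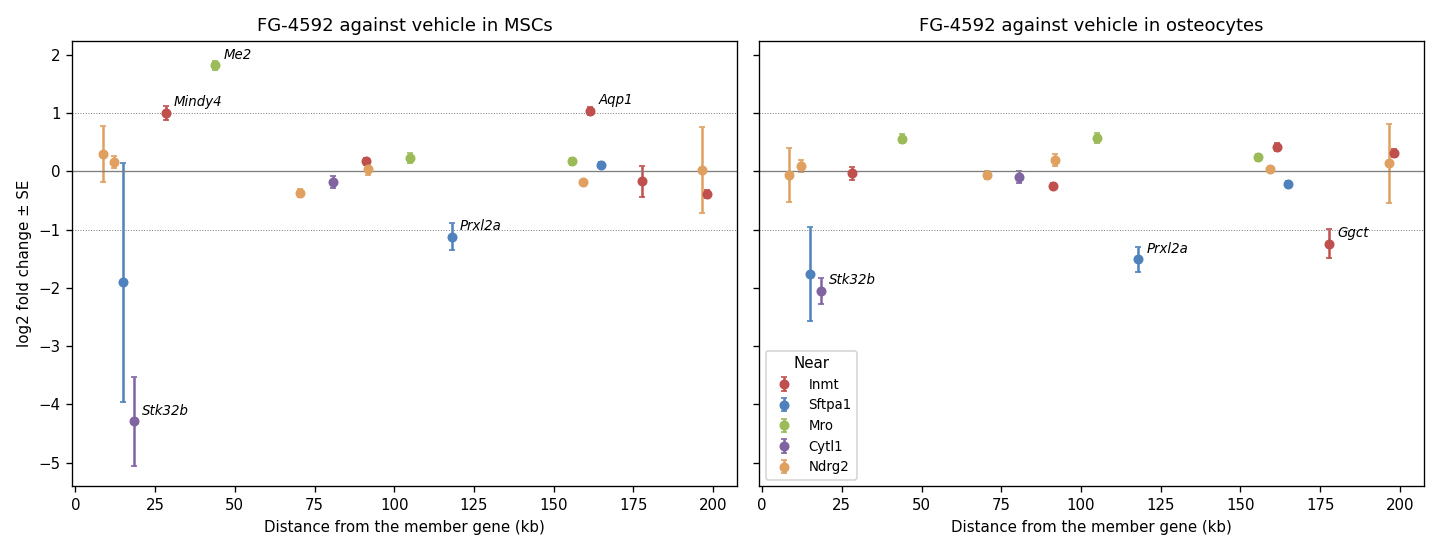
Log2 fold change with FG-4592 ± SE (vertical axis) of the 19 genes tested within 200 kb of Inmt, Sftpa1, Mro, Cytl1 or Ndrg2, against distance in kb (horizontal axis), in MSCs (left) and osteocytes (right). Genes that were called are named, dotted lines mark changes of 1, and Stk32b stands lowest in both panels, at fitted values of −4.29 and −2.05.

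The genes whose pattern was most like that of each gene were found by the Pearson correlation of log2 CPM over the 12 libraries. The libraries share 4 conditions, so that these values mainly compare 4 group means, and they are given as a description with no test. The names depend on the measure: of the 15 genes found, 2 were kept with Spearman's rho and 5 with a prior count of 0.5. Inmt was most like the predicted gene Gm12407 (r = 0.978, at most 26 counts in a library), Epdr1 (0.972) and Sfrp4 (0.972), a secreted Wnt modulator. Sfrp4 had 13.1, 9.6, 72.6 and 16 CPM in vehicle-treated and FG-4592-treated MSCs and vehicle-treated and FG-4592-treated osteocytes. Sftpa1 was most like Pfkfb3 (0.991), Sulf1 (0.99) and Atp2a2 (0.989). Pfkfb3, which makes the activator of phosphofructokinase, had 110 CPM in vehicle-treated osteocytes and 30.2 CPM with FG-4592, whereas Ldha and Pgk1 rose in the same cells.

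Mro was most like Trpv2 (0.992), Bmf (0.992) and Tgfb1 (0.99), and Cytl1 was most like Abi3bp (0.984), Mapkapk3 (0.983) and Plxdc2 (0.982). Abi3bp, an extracellular matrix protein gene, had 414 and 114 CPM in vehicle-treated and FG-4592-treated MSCs and 1650 and 612 CPM in osteocytes. Ndrg2 was most like Rhobtb1 (0.986), Trim65 (0.985) and Ssr1 (0.979), each of which had its highest level in treated osteocytes. Among the 5 genes themselves, r over the 12 libraries lay between 0.79 and 0.96 for the 6 pairs of Inmt, Sftpa1, Mro and Cytl1, which were picked for falls in these same libraries, so that a high r was largely set by the choice. With Ndrg2 it lay between −0.3 and 0.33. A high r did not go with a change of equal size, since Ssr1 varied between 234 and 313 CPM over the conditions while Ndrg2 varied between 0.535 and 29.3 CPM.

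**Figure D5:**
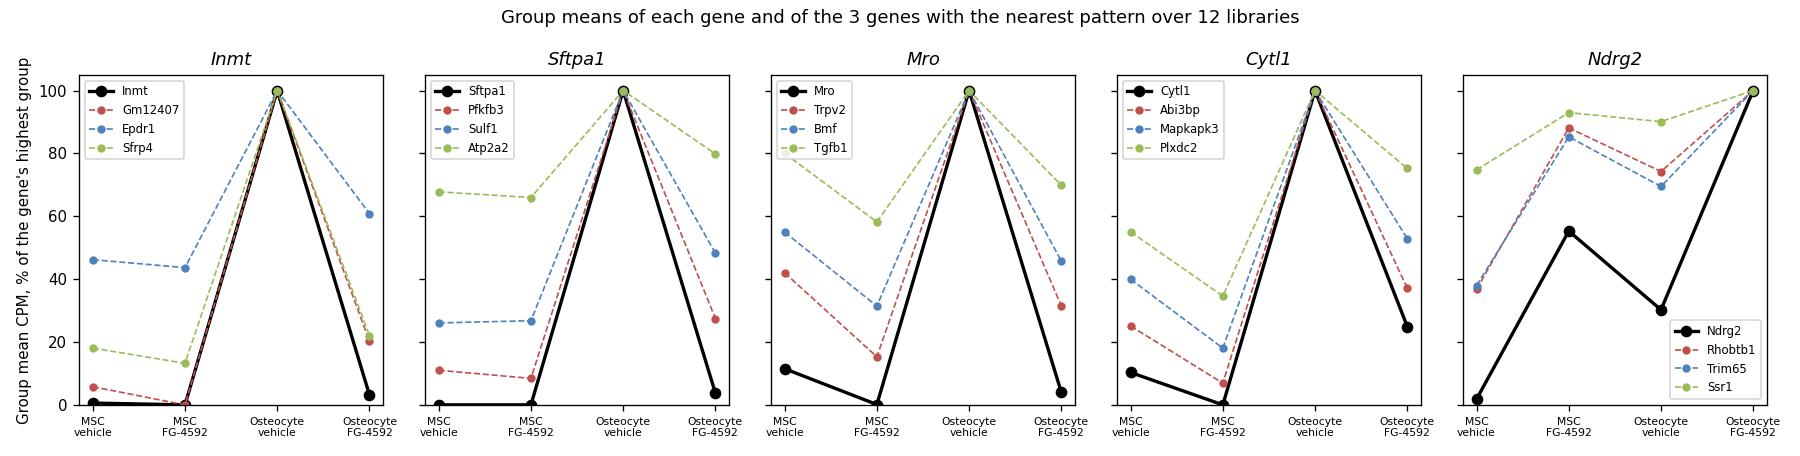
Group mean CPM as a percentage of the gene's own highest group (vertical axis) in the 4 conditions for each of the 5 genes (black) and the 3 genes with the nearest pattern (coloured, dashed). The highest condition is the same within a panel, but the depth of the fall is not, as Atp2a2 (265 of 332 CPM in treated osteocytes) shows beside Sftpa1 (0.242 of 6.45 CPM).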

How the data were processed

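RNAseq libraries of MPC2 cells were made with KAPA mRNA Hyper Prep and read as pairs of 100 bases. The authors aligned reads to mm10 with STAR 2.7.2a and counted them with featureCounts 1.6.2 on Gencode M22, requiring mapping quality 10, ignoring strand and counting a pair for each gene it overlapped. The deposited values are raw counts per gene. No exonic base of the 5 genes is shared with another gene.

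The filter kept a gene when 3 or more libraries had over 10 counts. Testing used edgeR 4.0.16 in R 4.3.3 (TMM factors, 1 coefficient per condition, quasi-likelihood test), and FDR was computed over 16484 genes. Each SE was back-calculated from this test, as the size of the log2 fold change divided by the square root of the F statistic. On simulated data, 198 of 200 genes changed 4-fold between cell types in vehicle were recovered among 15995 tested, with 1 false call. The changed genes were drawn only from those above a count minimum higher than that of the filter. Recovery of genes with fewer counts was not measured. Alternatives were the likelihood ratio test, DESeq2 1.42.0, 3 other scalings, 2 other filters, a replicate term, the compared libraries alone and each library left out. Figures used Python 3.11.15.

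The 5 genes and the gene lists were chosen with earlier results of these data known. Named genes were the 5, the 3 of nearest pattern to each (log2 CPM, prior count 2), those tested within 200 kb, and the 3 most abundant of each list. Other list members were named after their values were seen. Tests of the 5 genes between the cell types had been planned but are not given, since they share libraries with the choice of the genes. Symbols listed 2 times, such as Mat2a, Pdpn and Sftpb, were left out.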

Additional observations from a re-analysis of the deposited data

Results flagged for a closer look

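For 14 of the 99 neighbours and listed genes considered, 10 higher and 4 lower, the response to FG-4592 differed between osteocytes and MSCs in a test of the difference itself (edgeR's quasi-likelihood test, osteocytes minus MSCs on the log2 scale, FDR over all genes tested). Over all genes tested, this difference was called higher for 3.94% and lower for 1.07%. Among the neighbours it was −1.26 for Me2 near Mro (FDR = 4.47e-07), −1.04 for Mindy4 near Inmt (FDR = 0.000253) and −1.07 for Ggct near Inmt (FDR = 0.0415). Me2 and Mindy4 were called higher in MSCs and not called in osteocytes, and Ggct was called lower in osteocytes and not called in MSCs.

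Among the osteocyte and osteoblast markers the difference was 2.57 for Ibsp (FDR = 7.32e-06), 1.16 for Alpl (FDR = 3.33e-05) and −2.81 for Phex (FDR = 0.000301). Ibsp and Phex were called lower in both cell types. Among the stromal and adipocyte markers it was 1.82 for Nt5e (FDR = 0.000191), 1.64 for Ly6a (FDR = 2.72e-07), 1.34 for Adipoq (FDR = 2.16e-05) and 1.04 for Fabp4 (FDR = 0.00184). Among the cartilage genes it was 1.75 for Comp (FDR = 6.58e-05), 1.73 for Col11a2 (FDR = 4.27e-05) and 1.48 for Col2a1 (FDR = 0.00277). For the reference gene Vegfa it was 1.47 (FDR = 1.05e-08). Nt5e and Adipoq were called lower in MSCs and not called in osteocytes.

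For the 5 genes this difference was built from the changes that picked them and was not tested. It was not tested for the genes of nearest pattern either, since their likeness to the 5 chose them, nor is it given for genes that passed the count filter through a single condition.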

How the results depend on the processing

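Under all alternatives run, the counts of genes called in each comparison stayed within 1.5 times the values given. Of 639 alternative values, 632 stayed within a set limit. For counts of genes the limit was 1.5 times the value given. For log2 fold changes, bounds and levels it was the replicate spread, with no change of direction. Whether single genes kept their calls was not compared. The exceptions were 7. Mro in MSCs moved from −6.31 to −3.56 on the log2 scale without FG-4592 replicate 2, the library with its only count, where the value is a bound set by the floor, and over all left-out libraries it lay between −6.56 and −3.56. Without that library the value of Mro between the cell types with FG-4592 was 2.02 instead of 4.78 on the log2 scale, again a bound, and over all left-out libraries it lay between 2.02 and 5.05. The bound of Sftpa1 between the cell types in vehicle lay between 127-fold and 136-fold over all left-out libraries. Without osteocyte vehicle replicate 3, the mean of Sftpa1 was 6.62 CPM. Of the 15 genes with the nearest pattern, 2 were kept with Spearman's rho and 5 with a prior count of 0.5. The difference between the responses of Mro could not be given without MSC FG-4592 replicate 2.

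Libraries with the same replicate number did not deviate together (r from −0.135 to 0.054 over 18 pairs, none over 0.1), so the numbers do not pair them. With the replicate number as a block, 1566 genes were called higher and 967 lower between the cell types in vehicle, 653 and 791 with FG-4592 in MSCs and 1011 and 667 in osteocytes. Depth limits the values in MSCs, where Inmt and Sftpa1, and with FG-4592 also Mro and Cytl1, were at or near a count of 0.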
